A study of Mus musculus with 29 samples.

Results

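The comparison described here was that of mice whose peritoneal tumors persisted under dual immune checkpoint inhibitor (ICI) treatment with untreated mice at week 5. It rested on 7 of the 29 libraries of the series: the dual ICI libraries numbered 1 and 5 (uncured mice, n = 2) and all untreated libraries of day 35 (n = 5). Members were chosen by library title and mouse number. The labels do not carry the outcome of treatment, so the library numbers were taken as the mouse numbers under which the study reports the uncured animals. The uncured mice were thus set apart from 3 cured mice of the same treatment by their outcome, not by assignment.

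All mice of both groups were female C57BL/6J mice, 5 to 6 weeks old at the start, that had been injected intraperitoneally with YTN16 cells, a mouse gastric cancer line that seeds nodules on the peritoneum. The uncured mice had received repeated intraperitoneal doses of an anti-PD1 antibody (10 mg/kg) together with an anti-CTLA4 antibody (5 mg/kg), and the untreated mice had received PBS. RNA came from the stripped peritoneum and any nodules on it, which the labels call tumor tissue, so a library can mix tumor, abdominal wall and infiltrating cells. Reads per gene were counted by the study, and values are given here in CPM, the counts of a gene per 1e6 counts of its library, scaled by TMM factors over the 7 libraries.

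PD1 (Pdcd1) and CTLA4 are receptors that restrain T cells, and antibodies against them release that restraint. Killing by CD8+ T cells needs peptides shown on MHC class I, and help from CD4+ T cells needs MHC class II on antigen-presenting cells. Interferon gamma from T cells and NK cells acts through its receptor to raise both kinds of MHC, while the same signal also raises inhibitory ligands.

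The libraries held between 25989217 and 31080946 counts, so that 1 CPM stood for 21.9 to 33.4 counts. The tumor part of the label was borne out by a list of 32 gastric epithelium genes, which took 0.597% and 0.694% of counts in uncured mice 1 and 5, against 0.0101% to 0.0165% in the 3 cured mice. In untreated mice 1 to 5 the share was 0.539%, 0.130%, 0.531%, 0.476% and 0.488%, so untreated mouse 2 stood apart. Skeletal muscle contractile genes of the abdominal wall took 8.89% and 6.36% of counts in uncured mice 1 and 5 and 7.86%, 23.8%, 9.47%, 15.8% and 7.00% in untreated mice 1 to 5. Untreated mice 2 and 4 therefore held more muscle than the other 5 libraries, and their TMM factors were 0.705 and 0.870 against 1.08 to 1.12 elsewhere. Between untreated mice 1 and 2, 25.7% of 14471 genes with a mean of at least 1 CPM differed over 2-fold, while between uncured mice 1 and 5 it was 1.51%. Results that move with these libraries are given with and without them.

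**Figure D1:**
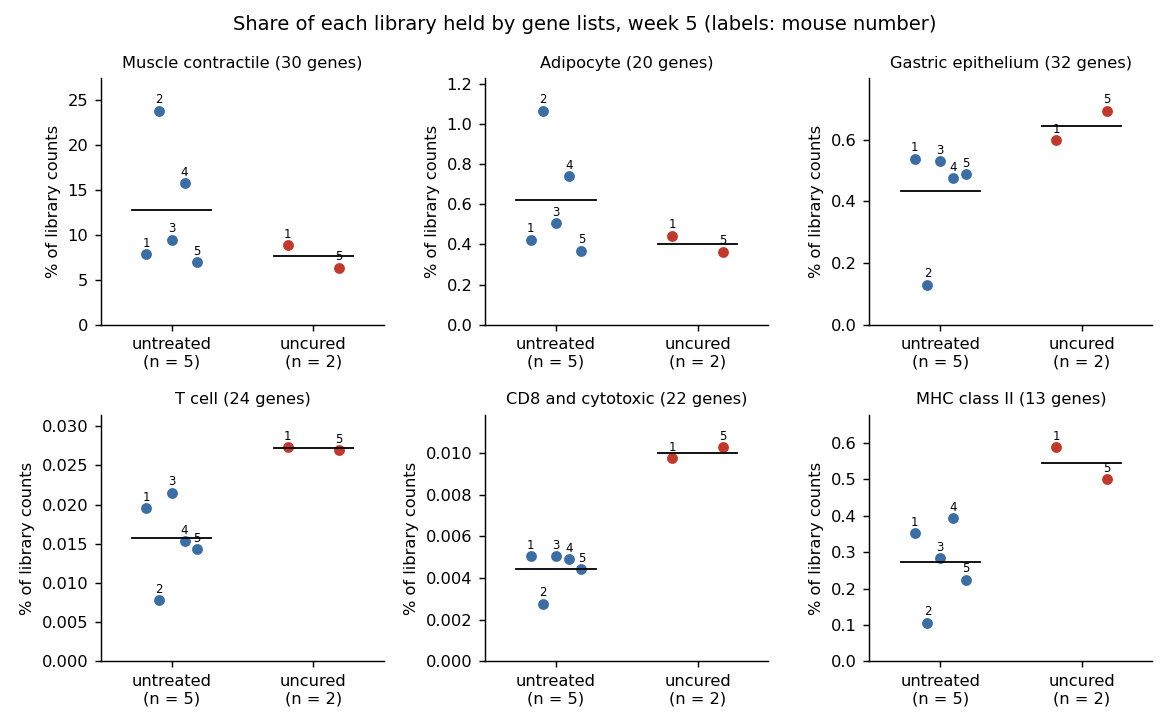
Share of library counts (%) held by 6 gene lists in each mouse of week 5; points are mice with their numbers, and bars are group means. The T cell, CD8, MHC class II and gastric epithelium shares of both uncured mice lie above those of all 5 untreated mice, while untreated mice 2 and 4 hold the highest muscle and adipocyte shares.

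Genes of T cells, cytotoxic cells and antigen presentation stood out at the upper end of the comparison, and genes of muscle, fat and mesothelium at the lower end, but no single gene was called by the main test. The muscle contractile and adipocyte medians of -1.18 and -0.96 were -0.19 and -0.20 without untreated mice 2 and 4. Of 16156 genes tested with the quasi-likelihood test of edgeR, 0 had an adjusted p under 0.05 (0% of genes), the smallest adjusted p being 0.734. At an unadjusted p under 0.05 there were 787 genes, with 442 higher in uncured mice (2.74% of genes) and 345 lower (2.14%). Of these, 159 were over 2-fold higher (0.984%) and 232 over 2-fold lower (1.44%). The median log2 fold change of all genes tested was -0.01, and 48.8% of genes were higher. Both uncured mice lay above all 5 untreated mice for 1435 genes (8.88%) and below all of them for 1382 (8.55%). DESeq2, which the study used for its own comparisons, called 17 of 15740 genes at an adjusted p under 0.05, with 15 higher (0.0953%) and 2 lower (0.0127%). A gene is therefore called higher or lower below as a description of the measured values, and only those 17 had an adjusted p under 0.05 by either tool.

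The count of 787 was 1310, 1023, 961, 628 or 588 without untreated mouse 1, 2, 3, 4 or 5. Without untreated mice 2 and 4 it was 1482, with 827 of 16017 genes higher and 655 lower. It was 390 without uncured mouse 1 and 132 without uncured mouse 5, but leaving out an uncured mouse leaves 1 library in that group, which is then assumed to vary like the untreated mice. Counts given below without an uncured mouse have the same limit. List counts that leave out mice are to be read beside these counts over all genes. With untreated mouse 5 left out the 17 calls of DESeq2 became 0, whereas leaving out untreated mouse 1, 2, 3 or 4 gave 62, 50, 21 or 29 calls. Each of the 17 genes was called in 2 to 4 of these 5 omissions.

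**Figure D2:**
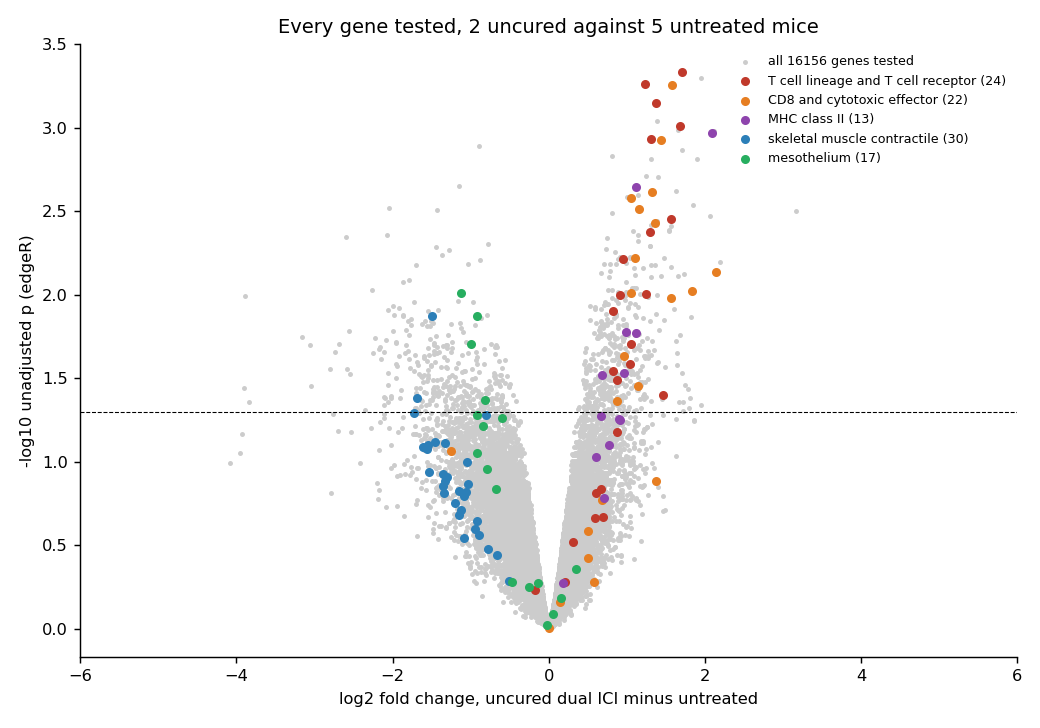
Log2 fold change (uncured minus untreated) against -log10 of the unadjusted edgeR p for every gene tested, with 5 gene lists in color; the dashed line marks an unadjusted p of 0.05, and 3 genes lie beyond the plotted range of the fold change. Most T cell, CD8 and MHC class II genes lie on the right, and most muscle contractile and mesothelium genes on the left.

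T cell genes were higher in the uncured mice almost throughout. Of 27 listed T cell lineage and receptor genes, 24 were tested and 23 of them were higher, with a median log2 fold change of 0.93 against -0.01 over all genes. For 16 of the 24 both uncured mice lay above every untreated mouse (8.88% of all genes), and the same number had an unadjusted p under 0.05 (2.74% of all genes). The list took 0.0273% and 0.0270% of counts in the uncured mice and 0.00784% to 0.0215% in untreated mice. In such bulk tissue, more T cells and more of these RNAs per T cell cannot be told apart.

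Cd3e, a signaling chain of the T cell receptor complex, was at 5.85 and 5.45 CPM in uncured mice 1 and 5 and at 2.44, 2.24, 2.42, 2.42 and 2.53 CPM in untreated mice 1 to 5. The untreated mice were nearly alike and the groups did not overlap, with a log2 fold change of 1.23 ± 0.23 (SE) and an adjusted p of 0.00486 by DESeq2. Cd4, the coreceptor of helper T cells, was at 8.91 and 9.80 CPM in the uncured and 4.48, 3.24, 4.91, 3.54 and 2.66 CPM in the untreated mice. Its log2 fold change was 1.31 ± 0.28 (adjusted p 0.0333 by DESeq2), and again the groups did not overlap. Themis, which tunes T cell receptor signaling in thymocytes, was low in all mice, with 2.03 and 2.01 CPM in the uncured and 0.649, 0.548, 0.893, 0.518 and 0.512 CPM in the untreated, and a log2 fold change of 1.68 ± 0.35 (adjusted p 0.0376 by DESeq2).

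Ikzf3, which encodes the lymphoid transcription factor Aiolos, had the smallest p of all genes in edgeR. It was at 6.77 and 8.30 CPM in the uncured mice and 2.35, 1.41, 3.19, 2.59 and 1.95 CPM in the untreated mice, a log2 fold change of 1.71 ± 0.32 (adjusted p 0.00486 by DESeq2). Sh2d2a, the T cell-specific adapter, was at 6.15 and 7.10 and 2.66, 2.19, 3.29, 2.63 and 1.95 CPM in the same order, with a log2 fold change of 1.38 ± 0.27 (adjusted p 0.00941 by DESeq2). Both genes were higher in each uncured mouse than in any untreated mouse. Ms4a4b, a membrane protein gene of T cells with close paralogs to which reads could have been assigned, was at 4.64 and 5.51 CPM against 1.57 to 2.76 CPM, with a log2 fold change of 1.31 ± 0.29 (adjusted p 0.0333 by DESeq2). Cd247, the zeta chain, was the listed gene that was not higher, at 2.99 and 2.37 CPM in uncured and 2.30 to 3.97 CPM in untreated mice (log2 fold change -0.18 ± 0.31). The list was little affected by which mouse was left out: its median stayed between 0.90 and 1.09, and was 1.01 without untreated mice 2 and 4. Its count of genes with an unadjusted p under 0.05 was 8 without uncured mouse 1 and 10 without uncured mouse 5.

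Among CD8 and cytotoxic effector genes, 21 of 22 were higher, the median log2 fold change was 1.08, and for 14 of 22 the groups did not overlap (8.88% of all genes). The same number had an unadjusted p under 0.05, or 9 without uncured mouse 5. Over all genes, 2.74% were higher at that threshold. The median of the list was between 0.98 and 1.16 with any one mouse left out and 1.02 without untreated mice 2 and 4. The list took 0.00976% and 0.0103% of counts in uncured mice 1 and 5 and 0.00278% to 0.00506% in untreated mice.

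Cd8a and Cd8b1 encode both chains of the CD8 coreceptor. Cd8a was at 9.18 and 9.92 CPM in the uncured mice and at 3.68, 2.24, 3.03, 5.13 and 3.62 CPM in untreated mice 1 to 5, with a log2 fold change of 1.43 ± 0.31 (adjusted p 0.0266 by DESeq2). Cd8b1 was at 3.27 and 4.37 CPM and 1.36, 1.23, 1.63, 1.04 and 1.12 CPM, with a log2 fold change of 1.58 ± 0.30 (adjusted p 0.00941 by DESeq2). For each chain the lower uncured mouse was above the highest untreated mouse. Cxcr6 and Itgae, receptors of tissue-resident T cells, had log2 fold changes of 1.32 ± 0.31 and 1.05 ± 0.25. Cxcr6 was at 6.33 and 5.99 CPM against 1.46 to 3.11 CPM, and Itgae at 16.4 and 14.7 CPM against 4.97 to 9.52 CPM, so neither overlapped. Ctsw, a cathepsin of cytotoxic lymphocytes, was at 7.29 and 7.22 CPM against 2.63 to 4.79 CPM (log2 fold change 1.15 ± 0.29).

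The effector molecules themselves were less uniform. Prf1, which encodes the pore-forming perforin, was at 1.75 and 2.85 CPM in uncured mice 1 and 5 and at 0.711, 0.365, 0.415, 0.302 and 1.38 CPM in untreated mice 1 to 5, with a log2 fold change of 1.83 ± 0.56 and no overlap. Gzmb, granzyme B, was at 1.31 and 1.53 CPM and 0.927, 0.639, 0.702, 1.55 and 1.18 CPM, and both uncured mice lay just below untreated mouse 4 (log2 fold change 0.50 ± 0.42). Ifng, interferon gamma, was near the limit of detection at 0.309 and 0.389 CPM in uncured mice and at most 0.352 CPM in untreated mice, among them 1 library with 0 counts. The groups overlapped for Ifng, and its fitted log2 fold change of 1.37 ± 0.83 rests on few reads. Gzmm, granzyme M, was the listed gene that was clearly lower on average, at 2.44 and 1.35 CPM against 2.19, 9.86, 3.29, 4.96 and 2.30 CPM, and its highest value was that of untreated mouse 2, which also had the largest muscle share.

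**Figure D3:**
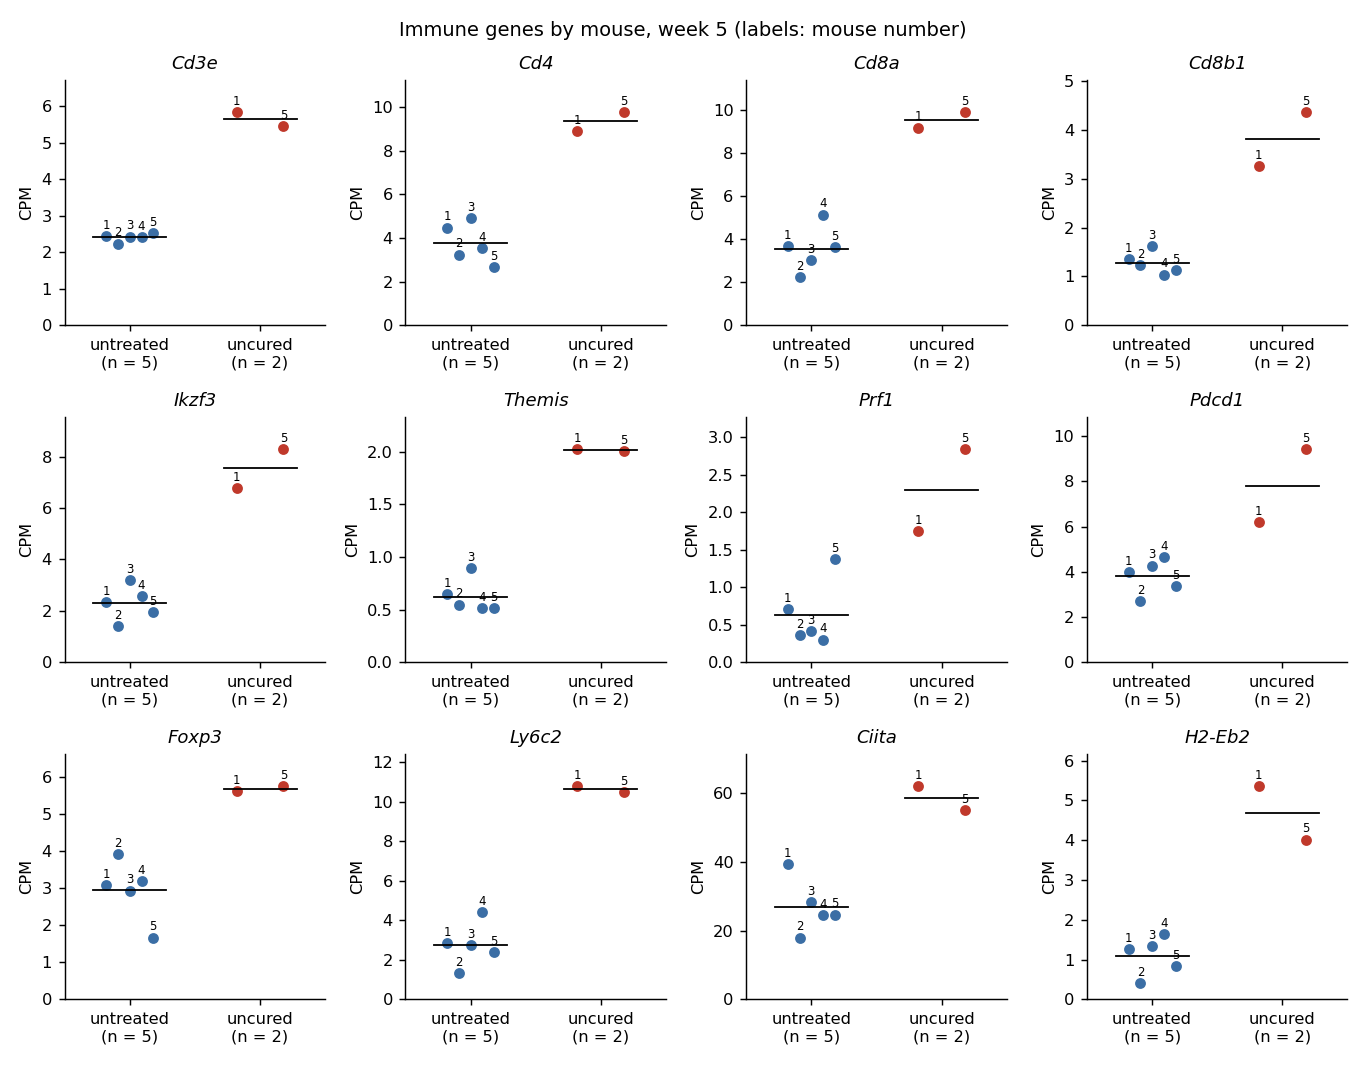
CPM of 12 immune genes in each mouse of week 5; points are mice with their numbers, and bars are group means. In all 12 panels both uncured mice (Cd3e 5.85 and 5.45 CPM) lie above the 5 untreated mice (Cd3e 2.24 to 2.53 CPM).

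Inhibitory receptors and their ligands were higher as a list, but few members passed even the unadjusted threshold. All 16 tested genes of the 18 listed were higher, with a median log2 fold change of 0.64. Groups did not overlap for 8 of them, and 2 had an unadjusted p under 0.05, a number that was 4 without untreated mouse 3, 1 without uncured mouse 1 and 0 without uncured mouse 5. Over all genes, 8.88% lay above every untreated mouse and 2.74% were higher at that threshold. The median of the list was 0.51 without untreated mouse 2 and 0.47 without untreated mice 2 and 4. Of the 18 genes, 8 are among those the study itself names for these libraries, so they are not independent evidence.

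Pdcd1, the target of the anti-PD1 antibody, was at 6.19 and 9.44 CPM in uncured mice 1 and 5 and at 3.99, 2.69, 4.27, 4.66 and 3.36 CPM in untreated mice 1 to 5 (log2 fold change 1.04 ± 0.29, no overlap). Cd274, its ligand PD-L1, was at 17.7 and 18.5 CPM and 13.8, 8.99, 13.0, 9.36 and 12.0 CPM (log2 fold change 0.66 ± 0.23, no overlap). These were the members with an unadjusted p under 0.05. Ctla4, the target of the other antibody, was at 2.68 and 2.40 CPM against 2.07, 1.00, 1.50, 2.80 and 0.864 CPM, and both uncured values lay below that of untreated mouse 4. Lag3 overlapped in the same way, at 6.88 and 7.76 CPM against 6.03, 4.43, 6.41, 10.2 and 4.77 CPM, with a log2 fold change of 0.20 ± 0.34. Tigit was at 2.34 and 3.47 CPM against 0.640 to 2.30 CPM, Havcr2 (TIM3) at 5.95 and 6.92 CPM against 1.55 to 5.59 CPM and Btla at 4.13 and 4.49 CPM against 1.64 to 3.83 CPM. Their log2 fold changes were 1.05 ± 0.51, 0.73 ± 0.41 and 0.66 ± 0.38, and for each the groups did not overlap. For Tigit, however, the lower uncured and the highest untreated value were nearly equal. Differences between Pdcd1 and the other receptors were not tested.

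Costimulatory genes were also all higher, 15 of 15 tested among 18 listed, with a median log2 fold change of 0.67. It was 0.84 without uncured mouse 1 and 0.46 without uncured mouse 5. The groups did not overlap for 8 of them, and 5 had an unadjusted p under 0.05, or 3 without uncured mouse 1 and 8 without untreated mice 2 and 4. Over all genes, 8.88% lay above every untreated mouse. At the same p threshold 442 of 16156 genes were higher, and 827 of 16017 without untreated mice 2 and 4. Slamf7, a receptor of activated lymphocytes, plasma cells and macrophages, was at 11.1 and 8.78 CPM in uncured and 4.70, 2.42, 4.11, 3.45 and 4.26 CPM in untreated mice, with a log2 fold change of 1.38 ± 0.28 (adjusted p 0.019 by DESeq2). Slamf6 was at 2.37 and 2.61 CPM against 0.685 to 1.39 CPM, Cd27 at 2.85 and 2.61 CPM against 0.320 to 1.51 CPM and Icos at 2.65 and 3.09 CPM against 0.736 to 1.78 CPM. Their log2 fold changes were 1.30 ± 0.35, 1.41 ± 0.48 and 1.01 ± 0.38, and none of these genes overlapped between groups. Cd28, the main costimulatory receptor of T cells, was at 2.99 and 3.41 CPM in uncured mice and 1.61, 3.97, 2.04, 1.12 and 1.92 CPM in untreated mice. Untreated mouse 2 had the highest Cd28 value of all, and the log2 fold change was 0.59 ± 0.45.

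Regulatory T cells suppress other T cells and are marked by the transcription factor Foxp3. Foxp3 was at 5.60 and 5.75 CPM in uncured mice 1 and 5 and at 3.09, 3.92, 2.93, 3.19 and 1.66 CPM in untreated mice 1 to 5, with a log2 fold change of 0.94 ± 0.33 and no overlap. It was the one gene of the 8 regulatory T cell genes with an unadjusted p under 0.05, and there was none without either uncured mouse. The list's median was 0.47, 7 of 8 genes were higher, and 4 of 8 did not overlap (8.88% of all genes). The exception was Il10, an inhibitory cytokine, at 0.688 and 0.539 CPM against 1.11, 0.593, 1.21, 1.60 and 0.512 CPM (log2 fold change -0.71 ± 0.53). NK cell genes gave 9 of 9 tested genes higher among 13 listed, with a median of 0.74, which was 0.42 without uncured mouse 5 and 0.97 without uncured mouse 1. Il2rb, a receptor chain for interleukin 2 and 15 that T cells also use, was at 13.7 and 16.8 CPM against 5.61 to 9.54 CPM (log2 fold change 1.00 ± 0.24). Eomes, a transcription factor of NK cells and CD8+ T cells, was at 3.23 and 5.21 CPM against 1.41 to 3.28 CPM (log2 fold change 0.88 ± 0.37), and uncured mouse 1 lay below untreated mouse 1.

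In the B cell and plasma cell list, 14 of 15 tested genes were higher, the median was 0.85, and the groups did not overlap for 6 of 15 (8.88% of all genes). Jchain, which joins secreted IgA and IgM, was at 211 and 179 CPM in uncured mice 1 and 5 and at 28.3, 5.66, 41.3, 157 and 36.6 CPM in untreated mice 1 to 5. Untreated mouse 4 stood far above the other untreated mice but below both uncured mice, and the log2 fold change was 1.86 ± 0.85. Pou2af1, a coactivator of immunoglobulin genes, was at 7.81 and 7.67 CPM against 1.73, 0.274, 1.40, 5.69 and 2.18 CPM (log2 fold change 1.78 ± 0.73). Derl3, a protein of the secretory pathway, was at 3.85 and 2.58 CPM against 0.834, 0.274, 1.08, 2.37 and 1.86 CPM (log2 fold change 1.32 ± 0.61). As for Jchain, untreated mouse 4 was the highest and untreated mouse 2 the lowest untreated mouse for both genes, and both uncured mice lay above. Ms4a1 (CD20), a marker of mature B cells, was at 0.688 and 0.719 CPM against 0.896, 0.183, 0.702, 0.992 and 0.800 CPM, with a log2 fold change of -0.03 ± 0.56. Of the 15, 2 had an unadjusted p under 0.05 (2.74% of all genes), which became 6 when untreated mouse 4 was omitted, 4 when untreated mouse 2 was, and 7 when both were. It became 0 on omitting either uncured mouse or untreated mouse 3, and 1 on omitting untreated mouse 5. Without both, Jchain was 1 of 3 genes that edgeR called, with a log2 fold change of 2.46 ± 0.17 and an adjusted p of 0.0196.

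Macrophage genes had a median log2 fold change of 0.38, with 18 of 20 higher, and the groups did not overlap for 3 of 20, a count of 11, 7 and 5 on omitting uncured mouse 1, untreated mouse 4 and untreated mouse 1. Over all genes tested, in both directions, the count was 2817 of 16156. It became 6319 of 16545, 3478 of 16121 and 4101 of 16055 on the same omissions. Without untreated mice 2 and 4 the macrophage median was 0.24. Adgre1 (F4/80) was at 83.4 and 88.3 CPM in uncured mice and 81.0, 29.3, 44.6, 43.7 and 66.9 CPM in untreated mice (log2 fold change 0.69 ± 0.34). Csf1r, the receptor on which macrophages depend, was at 246 and 274 CPM against 259, 114, 166, 195 and 209 CPM, with uncured mouse 1 below untreated mouse 1. Nos2, inducible nitric oxide synthase, was at 37.7 and 90.2 CPM against 34.5, 27.4, 34.1, 23.6 and 25.5 CPM (log2 fold change 1.14 ± 0.31). The groups did not overlap for Nos2, but uncured mouse 5 carried most of the difference, and without it the log2 fold change was 0.38.

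Of 12 inflammatory monocyte genes, 11 were higher with a median of 0.67, or 0.39 without untreated mice 2 and 4. Ly6c2, a surface antigen of monocytes and of memory CD8+ T cells, had the second smallest p of all genes in edgeR. It was at 10.8 and 10.5 CPM in uncured mice 1 and 5 and at 2.84, 1.32, 2.74, 4.40 and 2.40 CPM in untreated mice 1 to 5, a log2 fold change of 1.95 ± 0.37 (adjusted p 0.00486 by DESeq2). The gene lies beside its near-copy Ly6c1, so part of its reads could belong to that gene. Without untreated mice 2 and 4 it was also called by edgeR, with an adjusted p of 0.0463. Ccr2, the receptor that draws monocytes into tissue, was at 76.8 and 75.6 CPM against 74.8, 30.1, 41.8, 34.0 and 29.8 CPM, and untreated mouse 1 was nearly as high as the uncured mice (log2 fold change 0.86 ± 0.35). Ms4a4c, again with close paralogs, was at 5.02 and 4.88 CPM against 0.730 to 2.62 CPM (log2 fold change 1.39 ± 0.43).

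Neutrophil genes showed no common direction. Of 14 tested genes of 20 listed, 9 were higher and 5 lower, the median was 0.11, and the groups overlapped for each of them. The median was -0.25 without uncured mouse 5, 0.32 without uncured mouse 1 and -0.07 without untreated mice 2 and 4. Csf3r, the receptor for the neutrophil growth factor G-CSF, was at 42.4 and 57.7 CPM against 13.7 to 45.1 CPM, and Mmp9, a protease of neutrophils and macrophages, at 36.8 and 62.4 CPM against 20.2 to 39.5 CPM. Lcn2, which neutrophils and epithelium both make, was at 24.6 and 24.5 CPM against 17.8 to 52.1 CPM. Their log2 fold changes were 0.85 ± 0.39, 0.83 ± 0.31 and -0.60 ± 0.39.

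Dendritic cell genes had a median of 0.50, with 15 of 16 higher. Of the 16, 4 had an unadjusted p under 0.05 (2.74% of all genes). Irf8 and Flt3, which conventional dendritic cells need to develop, were at 64.7 and 64.9 CPM against 25.6 to 48.0 CPM and at 4.99 and 5.42 CPM against 1.76 to 3.54 CPM. Wdfy4, used in cross-presentation, was at 39.7 and 34.7 CPM against 13.5 to 29.3 CPM, and Itgax (CD11c) at 42.9 and 40.0 CPM against 11.4 to 36.6 CPM. The log2 fold changes of these 4 genes were 0.75 ± 0.23, 0.95 ± 0.33, 0.86 ± 0.28 and 0.87 ± 0.35, and for each the groups did not overlap. They were the 4 members with an unadjusted p under 0.05, a count of 1 without uncured mouse 1 and 2 without uncured mouse 5. In the mast cell and eosinophil list, with a median of 0.10, Siglecf and Ccr3 were higher, at 6.09 and 7.28 CPM against 1.87 to 4.82 CPM and at 5.30 and 6.26 CPM against 1.15 to 4.91 CPM (log2 fold changes 1.04 ± 0.37 and 1.04 ± 0.47). Both are surface proteins of eosinophils. That list's median was -0.43 without uncured mouse 1 and 0.52 without uncured mouse 5.

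Genes of antigen presentation were higher in both classes. In MHC class II all 13 genes were higher, with a median log2 fold change of 0.90, and for 10 of 13 the groups did not overlap (8.88% of all genes). There were 6 with an unadjusted p under 0.05, which was 2 without uncured mouse 1 and 10 without untreated mice 2 and 4. Over all genes, 442 of 16156 were higher at that threshold, and 827 of 16017 without untreated mice 2 and 4. The class II median stayed between 0.77 and 1.02 with any one mouse left out and was 0.91 without untreated mice 2 and 4. The list took 0.588% and 0.501% of counts in uncured mice 1 and 5 and 0.107% to 0.393% in untreated mice. MHC class II genes are switched on by the coactivator Ciita, which is held at their promoters by factors bound to the X and Y boxes. An inverted CCAAT motif, CTGATTGG, forms the core of the Y box. The 150 bases before the start of 3 class II genes on chromosome 17 are printed because they hold this motif. These 3 genes and Ciita were higher in both uncured mice than in all untreated mice. The same stretch of H2-DMb2, also a class II gene on chromosome 17, held no match and is not printed. The motif CTGATTGG is in capitals (RefSeq sequences on GRCm38.p6, 5′ to 3′ on the gene's strand).
H2-Eb1 (chr17:34305717-34305866, plus strand): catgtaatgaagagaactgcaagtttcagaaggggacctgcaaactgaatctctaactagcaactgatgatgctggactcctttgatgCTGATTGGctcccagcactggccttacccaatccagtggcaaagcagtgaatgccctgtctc
H2-Eb2 (chr17:34325525-34325674, plus strand): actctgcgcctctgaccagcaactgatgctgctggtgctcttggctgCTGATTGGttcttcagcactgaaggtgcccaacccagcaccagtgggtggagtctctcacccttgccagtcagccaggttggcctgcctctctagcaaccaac
H2-Aa (chr17:34287824-34287973, minus strand): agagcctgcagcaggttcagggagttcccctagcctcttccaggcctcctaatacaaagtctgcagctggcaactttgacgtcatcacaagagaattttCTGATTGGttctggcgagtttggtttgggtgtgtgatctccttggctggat
The motif began 62, 103 and 51 bases before the start in these 3 promoters. Searched on both strands over windows of 300 bases around the start, it was in 4 of 11 promoters of the class II list (36.4%). It was also in 8 of 23 promoters of the MHC class I and peptide loading list (34.8%), so it was not particular to class II. Of all 32851 promoters, 4.10% held it. A match is a description of the letters and not a bound site.

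Ciita itself was at 62.1 and 55.0 CPM in uncured mice 1 and 5 and at 39.3, 18.0, 28.3, 24.6 and 24.7 CPM in untreated mice 1 to 5, with a log2 fold change of 1.12 ± 0.26 and no overlap. H2-Aa, the alpha chain of I-A, was at 705 and 609.5 CPM against 414, 209.7, 329.6, 472 and 236 CPM (log2 fold change 0.98 ± 0.34), and H2-Eb1, a beta chain, at 804 and 696 CPM against 458, 241, 353, 614 and 250.2 CPM (log2 fold change 0.97 ± 0.37). Untreated mouse 4 came closest to the uncured mice for both. H2-Eb2, a less expressed relative that can share reads with H2-Eb1, had the largest class II difference. It was at 5.36 and 4.01 CPM against 1.27, 0.411, 1.34, 1.64 and 0.832 CPM, a log2 fold change of 2.09 ± 0.44 (adjusted p 0.019 by DESeq2). Btnl2, a butyrophilin-like gene of the same region that can restrain T cells, was at 6.50 and 10.4 CPM against 2.75, 0.867, 1.98, 2.50 and 3.20 CPM, with a log2 fold change of 1.89 ± 0.42 (adjusted p 0.0369 by DESeq2). It was not in the class II list and was chosen by its p.

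In MHC class I and peptide loading, all 24 tested genes of 28 listed were higher, with a median log2 fold change of 0.50. The groups did not overlap for 14 of 24, and 6 had an unadjusted p under 0.05, which was 2 without uncured mouse 5 and 14 without untreated mice 2 and 4. Over all genes, 8.88% lay above every untreated mouse. At the same p threshold 442 of 16156 genes were higher, and 827 of 16017 without untreated mice 2 and 4. Nlrc5, the class I counterpart of Ciita, was at 85.9 and 105 CPM in uncured and 57.5, 23.4, 56.8, 36.7 and 53.0 CPM in untreated mice (log2 fold change 1.07 ± 0.32). Psmb9, a subunit of the immunoproteasome whose gene model overlaps Tap1, was at 49.0 and 54.9 CPM against 31.8, 22.8, 24.5, 44.5 and 33.8 CPM (log2 fold change 0.72 ± 0.26). The groups did not overlap for either. H2-Q2 and H2-Q5, of a family of near-identical genes, had log2 fold changes of 1.85 ± 0.46 and 1.23 ± 0.38. H2-Q2 was at 12.9 and 18.4 CPM against 4.67, 1.46, 4.56, 3.62 and 7.33 CPM, and its reads may be shared with other H2-Q genes. Untreated mouse 2 had the lowest value of the 7 mice for each of these 4 genes.

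Interferon-stimulated genes were higher in most members. Of 32 genes of the response to interferon gamma, 31 were higher, with a median log2 fold change of 0.67. The groups did not overlap for 17 (8.88% of all genes), and 16 had an unadjusted p under 0.05 (2.74% of all genes). Without uncured mouse 5 the median was 0.40 and 0 of 32 had an unadjusted p under 0.05. Of 33 tested type I interferon-stimulated genes, 32 were higher with a median of 0.52 (0.40 without uncured mouse 5 and 0.35 without untreated mouse 2), no overlap for 17, and an unadjusted p under 0.05 for 9. That count was 1 without uncured mouse 5, 5 without uncured mouse 1, 4 without untreated mouse 5, and 21 without untreated mice 2 and 4. Over all genes, 442 of 16156 were higher at that threshold, and 827 of 16017 without untreated mice 2 and 4. No gene stands in both lists.

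Gbp4 and Tgtp2, GTPases of defense against intracellular microbes, were at 42.3 and 53.0 CPM against 22.4 to 34.99 CPM and at 21.5 and 27.9 CPM against 8.35 to 17.2 CPM. Their log2 fold changes were 0.78 ± 0.22 and 0.86 ± 0.27, and both belong to gene families whose members can share reads. Ido1, which breaks down tryptophan and thereby restrains T cells, differed between the uncured mice themselves, at 2.61 and 19.1 CPM, while the untreated mice were at 3.09, 1.00, 2.14, 2.63 and 2.94 CPM. Its log2 fold change of 2.19 ± 0.62 was 0.14 without uncured mouse 5. Mx1, an antiviral GTPase that is nonfunctional in many laboratory strains, was at 12.4 and 14.9 CPM against 5.81, 2.92, 7.43, 5.39 and 4.35 CPM (log2 fold change 1.39 ± 0.32, no overlap), and Rsad2 (viperin) at 8.08 and 10.5 CPM against 5.59, 4.84, 7.30, 6.30 and 4.83 CPM (log2 fold change 0.68 ± 0.25, no overlap). Ifi27l2a was the type I gene that was lower, at 31.2 and 35.9 CPM against 27.1, 59.2, 37.2, 105 and 46.0 CPM (log2 fold change -0.71 ± 0.47), and its highest value was that of untreated mouse 4.

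The promoters of Tgtp2 and Rsad2 are printed because they hold letters of the DNA elements through which interferons act, both kinds in Tgtp2 and ISRE alone in Rsad2. Interferon gamma acts through TTCNNNGAA (GAS), and type I interferons through GAAA, any 2 bases and GAAA again (ISRE). Each match is in capitals within the 150 bases before the start (RefSeq, GRCm38.p6, 5′ to 3′ on the gene's strand).
Tgtp2 (chr11:49064213-49064362, minus strand): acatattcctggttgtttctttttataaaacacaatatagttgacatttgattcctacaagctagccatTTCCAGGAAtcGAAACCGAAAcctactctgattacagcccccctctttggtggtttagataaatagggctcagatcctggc
Rsad2 (chr12:26456453-26456602, minus strand): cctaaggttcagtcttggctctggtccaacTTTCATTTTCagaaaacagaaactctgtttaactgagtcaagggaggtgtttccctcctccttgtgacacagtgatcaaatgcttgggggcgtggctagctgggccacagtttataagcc
In Tgtp2 the GAS match began 81 bases and the ISRE match 70 bases before the start, and in Rsad2 an ISRE match on the other strand began 120 bases before it. Over windows of 300 bases and both strands, the ISRE letters were in 17 of 29 promoters of the type I list (58.6%), in 11 of 23 of the interferon gamma list (47.8%) and in 3.44% of all promoters. The GAS letters were in 8 of 23 promoters of the interferon gamma list (34.8%) and in 8.30% of all promoters.

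JAK-STAT signaling was represented by 60 genes, from cytokine receptors to their inhibitors. Of 56 tested, 42 were higher with a median log2 fold change of 0.25. The groups did not overlap for 20 that were higher and 1 that was lower (8.88% and 8.55% of all genes). Higher at an unadjusted p under 0.05 were 12 (2.74% of all genes). This last count was 2 without uncured mouse 5 and 7 without untreated mouse 5. Il2rg, the receptor chain shared by interleukins 2, 4, 7, 9, 15 and 21, was at 27.6 and 33.8 CPM in uncured and 19.0, 15.4, 18.5, 18.4 and 16.0 CPM in untreated mice, with a log2 fold change of 0.81 ± 0.18 and no overlap. Il10ra was at 37.4 and 42.0 CPM against 12.7 to 30.9 CPM (log2 fold change 0.83 ± 0.29, no overlap). The gene below all untreated mice was Stat5b, at 160.1 and 152 CPM against 165, 623, 191, 222 and 180.1 CPM, where untreated mouse 2 stood far above the rest (log2 fold change -0.82 ± 0.54, or -0.19 without untreated mice 2 and 4).

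Among cytokines, 17 of 24 tested genes were higher with a median of 0.40, and 4 had an unadjusted p under 0.05, or 0 without uncured mouse 5. Over all genes, 2.74% were higher at that threshold. Il1b, an inflammatory cytokine of myeloid cells, was at 13.9 and 17.8 CPM against 10.1, 7.80, 9.82, 8.19 and 4.03 CPM (log2 fold change 0.99 ± 0.33, no overlap). Il12b, which encodes the p40 chain shared by interleukins 12 and 23, was at 1.96 and 1.80 CPM against 0.865, 0.319, 1.21, 0.819 and 0.320 CPM (log2 fold change 1.39 ± 0.52, no overlap). Il12a, the other chain of interleukin 12, was at 0.619 and 1.26 CPM against 1.45, 6.80, 0.765, 2.46 and 0.768 CPM, and untreated mice 2 and 4 were highest. Its log2 fold change was -1.36 ± 0.91 with all mice and -0.08 without untreated mice 2 and 4. Tgfb1 was at 69.8 and 96.9 CPM against 72.8, 46.5, 62.9, 70.7 and 58.9 CPM (log2 fold change 0.42 ± 0.22), and uncured mouse 1 lay within the untreated range.

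For chemokines and their receptors, 39 of 52 tested genes were higher with a median of 0.53, and the groups did not overlap for 18 (8.88% of all genes). There were 9 with an unadjusted p under 0.05, which was 2 without uncured mouse 5 and 16 without untreated mouse 1. Over all genes, 442 of 16156 were higher at that threshold, and 597 of 16055 without untreated mouse 1. Ccl5, a chemokine of activated T cells, was at 12.2 and 12.7 CPM against 5.01, 4.93, 6.03, 9.01 and 3.94 CPM (log2 fold change 1.11 ± 0.31). Cxcr3, the receptor that draws T cells to interferon-induced ligands, was at 4.02 and 4.91 CPM against 2.90, 1.46, 2.55, 1.81 and 1.98 CPM (log2 fold change 1.05 ± 0.32). Cxcl2, which attracts neutrophils, was at 2.34 and 2.64 CPM against 1.95, 1.00, 1.56, 1.04 and 1.15 CPM (log2 fold change 0.88 ± 0.36). None of the 3 overlapped between groups. Over the 50 tested genes that the study names for these data, chosen by it on these libraries, 40 were higher and the median was 0.76.

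**Figure D4:**
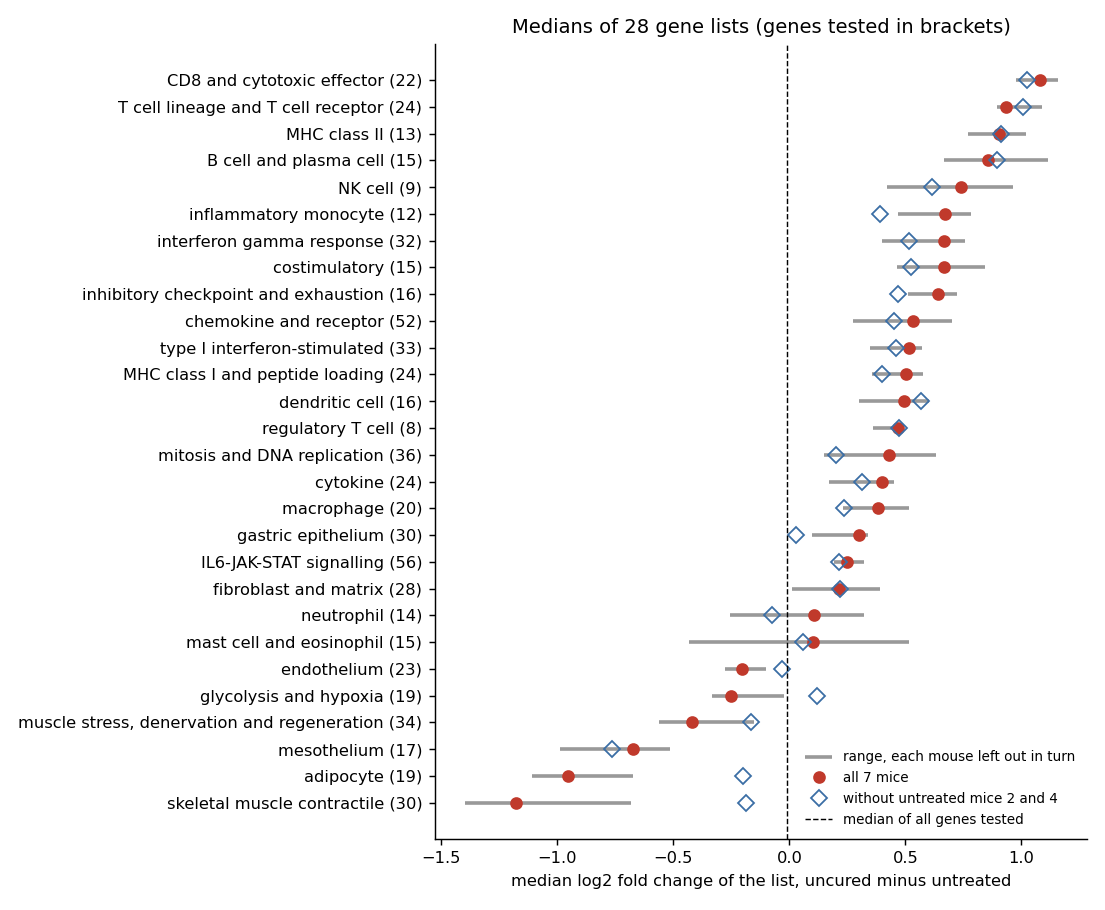
Median log2 fold change (uncured minus untreated) of 28 gene lists; filled circles use all 7 mice, grey bars span the medians with each mouse left out in turn, open diamonds leave out untreated mice 2 and 4, and the dashed line is the median of all genes tested. The T cell, CD8 and MHC class II medians stay between 0.77 and 1.16 in the settings shown, whereas the muscle contractile median moves from -1.18 to -0.19 and the adipocyte median from -0.96 to -0.20.

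Genes of gastric epithelium, which mark the tumor cells, lay close together in most mice of both groups. Their summed share was still highest in the uncured mice, at 0.597% and 0.694% of counts against at most 0.539% in untreated mice. Of 30 tested gastric epithelium genes, 22 were higher with a median log2 fold change of 0.30, but this was 0.03 without untreated mice 2 and 4, and the groups did not overlap for 2 genes above and 2 below, at or under the share over all genes (8.88% and 8.55%). Cdh1 (E-cadherin) was at 443 and 539 CPM in uncured mice and 372, 129, 417, 285 and 441 CPM in untreated mice. Krt7 was at 169.9 and 266 CPM against 154, 66.8, 161, 198 and 135 CPM, and Cldn18, a gastric tight junction gene, at 58.3 and 68.3 CPM against 44.6, 20.9, 58.5, 47.9 and 49.5 CPM. Untreated mouse 2 was far below the other 6 mice for all 3 genes. For Cdh1 the groups did not overlap, although uncured mouse 1 and untreated mouse 5 were nearly equal, and for Krt7 and Cldn18 they overlapped.

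The members named by the rule for the lower direction are given as values. Muc6, a mucin of deep gastric glands, was at 1.13 and 0.629 CPM in uncured mice 1 and 5 and at 3.86, 1.51, 3.54, 2.59 and 1.31 CPM in untreated mice 1 to 5 (log2 fold change -1.54 ± 0.55, no overlap). Cldn10 was at 1.99 and 1.77 CPM against 4.42, 2.19, 5.26, 4.70 and 3.97 CPM (log2 fold change -1.13 ± 0.38, no overlap). These were the 2 listed genes with an unadjusted p under 0.05, a count that was 4 without untreated mouse 2 and 7 without untreated mice 2 and 4. Over all genes, 345 of 16156 were lower at that threshold. That was 473 of 16072 without untreated mouse 2 and 655 of 16017 without untreated mice 2 and 4. Gkn3, a gastrokine, was at 3.68 and 0.719 CPM against 8.31, 1.41, 9.57, 6.38 and 6.53 CPM, and uncured mouse 5 was lowest (log2 fold change -1.56 ± 0.78). S100a14, a calcium-binding protein of epithelia that was not in the list, was at 34.2 and 88.8 CPM against 18.2, 15.6, 14.9, 26.8 and 22.1 CPM, with a log2 fold change of 1.66 ± 0.35 (adjusted p 0.0376 by DESeq2). Uncured mouse 5 was far above uncured mouse 1 for S100a14, and without uncured mouse 5 the log2 fold change was 0.81.

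Genes of mitosis and DNA replication were higher for 35 of 36, with a median of 0.43, but 0 of 36 had an unadjusted p under 0.05 in edgeR, and none is among the 17 genes called by DESeq2. Without untreated mouse 3 there were 3. The median was 0.15 without uncured mouse 5, 0.63 without uncured mouse 1 and 0.20 without untreated mice 2 and 4. Foxm1, a transcription factor of mitosis, was at 37.5 and 55.3 CPM against 39.3, 17.2, 45.1, 27.0 and 23.9 CPM (log2 fold change 0.60 ± 0.35). Cdc6, which licenses replication origins, was at 9.25 and 10.6 CPM against 8.00, 3.10, 9.15, 5.48 and 4.42 CPM (log2 fold change 0.72 ± 0.39) and was the 1 listed gene with no overlap.

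Contractile muscle genes were lower with all mice compared but differed little once untreated mice 2 and 4 were left out. All 30 genes were lower with a median log2 fold change of -1.18, but without untreated mice 2 and 4 the median was -0.19 and 8 of 30 were higher. Without untreated mouse 2 alone it was -0.68. The groups did not overlap for 5 of 30, and 2 had an unadjusted p under 0.05, a count of 7 or 6 on omitting untreated mouse 5 or 3, 1 on omitting untreated mouse 2 or 4, and 0 on omitting uncured mouse 5. Over all genes, 8.55% lay below every untreated mouse and 2.14% were lower at that threshold. Tcap, the titin cap of the sarcomere, was at 527 and 549.7 CPM in uncured and 600.2, 2941, 849, 3569 and 937 CPM in untreated mice (log2 fold change -1.72 ± 0.77, or -0.56 without mice 2 and 4). Actn2, alpha-actinin of the Z disc, was at 191 and 146 CPM against 270.0, 859, 282, 447 and 528 CPM (log2 fold change -1.50 ± 0.49, or -1.10). Both uncured mice lay below all untreated mice for each of these genes.

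Stress-regulated muscle genes were split into those lower and those higher in the uncured mice. In this list 24 of 34 tested genes were lower and 10 higher, with 6 and 4 at an unadjusted p under 0.05 (2.14% and 2.74% of all genes). The 6 were 1 without uncured mouse 1, and the 4 were 2 without uncured mouse 5 and 2 without untreated mouse 5. Ankrd2, a stretch-responsive protein of slow fibers, was at 15.5 and 13.6 CPM in uncured mice 1 and 5 and at 40.5, 48.8, 29.9, 68.3 and 114 CPM in untreated mice 1 to 5, with a log2 fold change of -2.05 ± 0.51 (adjusted p 0.0269 by DESeq2). Without untreated mice 2 and 4 the log2 fold change was -2.08 and the adjusted p was 0.188 by DESeq2, so the call was lost, as it was without untreated mouse 4 alone (0.0995) and without untreated mouse 5 alone (0.0558). Untreated mouse 5 had the highest Ankrd2 value and the lowest muscle share of the untreated mice. An edgeR fit with the muscle share of each library as a covariate called 0 genes at an adjusted p under 0.05, as did the main fit. Beyond that fit, the part of muscle content in the Ankrd2 difference was not tested. Csrp3, another mechanical sensor, was at 17.9 and 29.7 CPM against 45.4, 116, 33.8, 83.8 and 196 CPM and was again highest in untreated mouse 5 (log2 fold change -1.99 ± 0.68). Fbxo32 (atrogin-1) and Trim63 (MuRF1), the ubiquitin ligases of muscle wasting, were at 129.9 and 181 CPM against 274, 919.8, 361, 509 and 461 CPM and at 51.4 and 77.2 CPM against 95.3, 290.0, 118, 439 and 236 CPM. Their log2 fold changes were -1.70 ± 0.48 and -1.87 ± 0.61, or -1.23 and -1.22 without untreated mice 2 and 4, and neither overlapped. Outside this list, Nrap and Lmod2, which help assemble thin filaments, had log2 fold changes of -1.87 ± 0.55 and -1.45 ± 0.39, or -1.45 and -1.09 without those mice.

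The 4 genes of this list that were higher at an unadjusted p under 0.05 include those of developing or regenerating fibers. Myh8, perinatal myosin heavy chain, was at 51.3 and 43.7 CPM in uncured mice and 13.4, 25.5, 8.48, 23.9 and 10.3 CPM in untreated mice, with a log2 fold change of 1.54 ± 0.40, or 2.15 without untreated mice 2 and 4, when edgeR called it with an adjusted p of 0.0463. Myh3, embryonic myosin heavy chain, was at 21.4 and 21.1 CPM against 11.6, 12.5, 2.90, 15.2 and 6.75 CPM (log2 fold change 1.12 ± 0.49), and Chrng, the fetal subunit of the acetylcholine receptor, at 1.62 and 2.79 CPM against 1.27, 1.51, 0.606, 1.12 and 0.896 CPM (log2 fold change 1.03 ± 0.41). Scn8a, a voltage-gated sodium channel best known from neurons, was at 10.6 and 7.91 CPM against 1.17, 1.19, 2.52, 3.92 and 1.86 CPM, with a log2 fold change of 2.12 ± 0.44 (adjusted p 0.0253 by DESeq2). For all 4 genes both uncured mice were above every untreated mouse.

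**Figure D5:**
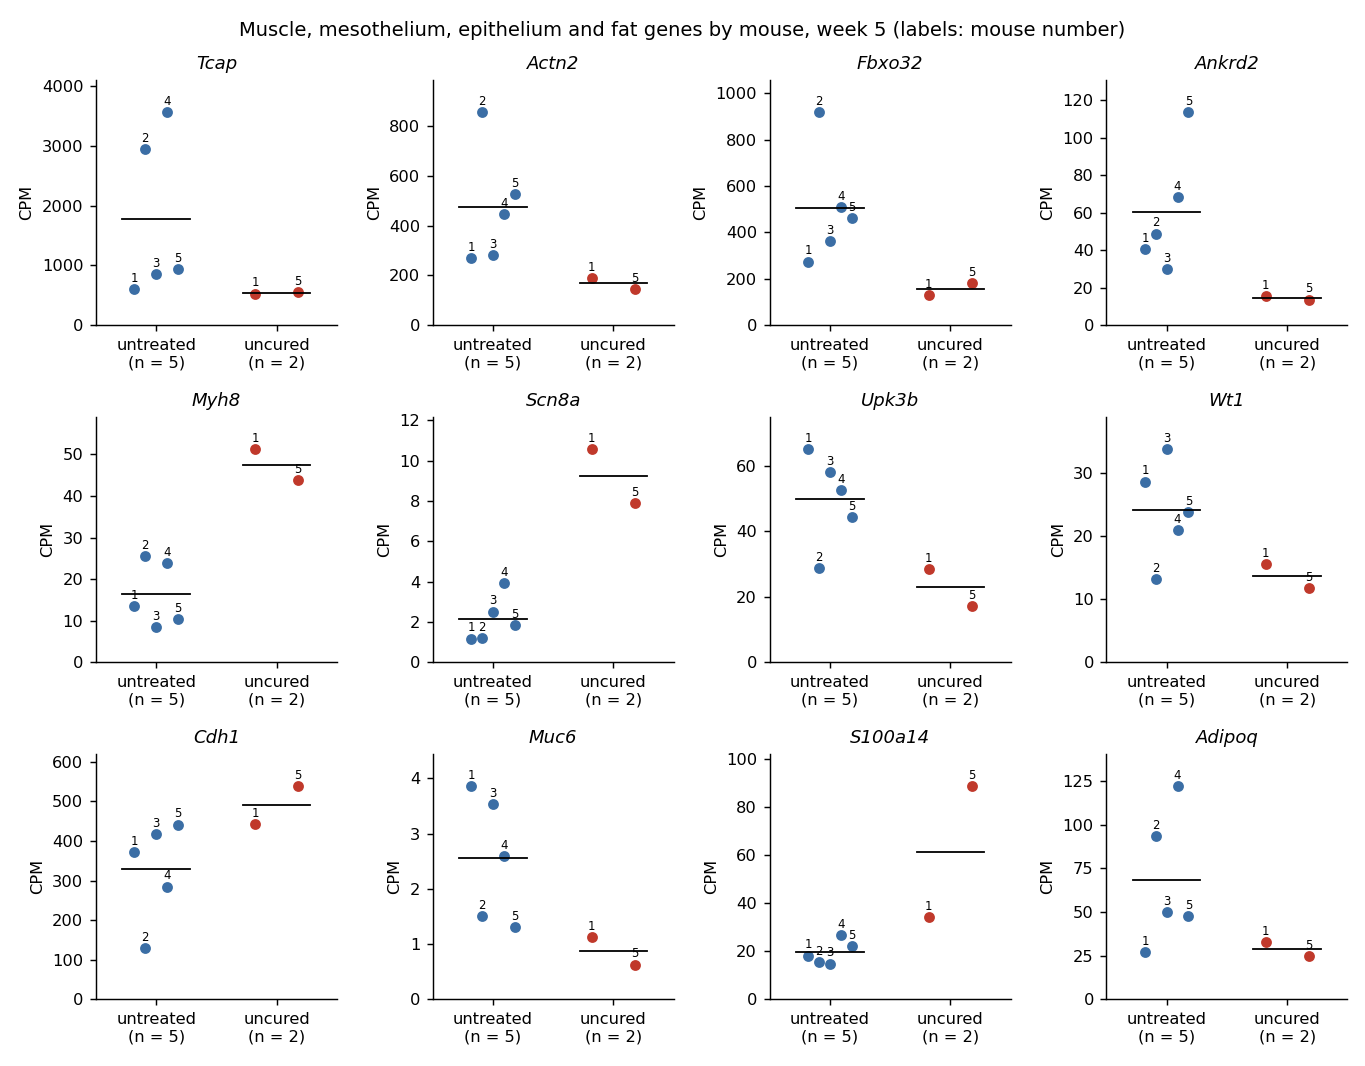
CPM of 12 muscle, mesothelium, epithelium and fat genes in each mouse of week 5; points are mice with their numbers, and bars are group means. Myh8, Scn8a and S100a14 are higher and Fbxo32, Ankrd2, Upk3b and Muc6 lower in both uncured mice than in all untreated mice, and untreated mice 2 and 4 are highest for Tcap and Adipoq.

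Mesothelial genes, which mark the lining of the peritoneal cavity, were lower with and without untreated mice 2 and 4. Of 17 tested, 14 were lower with a median log2 fold change of -0.67, which was -0.76 without untreated mice 2 and 4 and between -0.99 and -0.51 with any one mouse left out. There were 4 with an unadjusted p under 0.05, which became 0 or 2 on omitting uncured mouse 5 or 1, 10 on omitting untreated mouse 2, and 11 on omitting untreated mice 2 and 4. Over all genes, 345 of 16156 were lower at that threshold. That was 473 of 16072 without untreated mouse 2 and 655 of 16017 without untreated mice 2 and 4. Upk3b, a uroplakin of mesothelium, was at 28.6 and 17.3 CPM in uncured mice 1 and 5 and at 65.3, 28.8, 58.0, 52.6 and 44.3 CPM in untreated mice 1 to 5 (log2 fold change -1.12 ± 0.34), and uncured mouse 1 lay just below untreated mouse 2. Upk1b was at 16.1 and 14.6 CPM against 39.4, 17.5, 33.9, 40.3 and 22.1 CPM (log2 fold change -0.99 ± 0.35). Wt1, the transcription factor of mesothelium, was at 15.6 and 11.7 CPM against 28.6, 13.1, 33.8, 20.96 and 23.8 CPM (log2 fold change -0.82 ± 0.35), and Rspo1 at 12.8 and 7.13 CPM against 18.1, 13.6, 19.7, 23.7 and 18.8 CPM (log2 fold change -0.92 ± 0.30). Untreated mouse 2 was the lowest untreated mouse for all 4 genes. The summed share of the list, in which abundant members weigh most, did not follow: it was 0.185% and 0.220% in uncured mice and 0.0559% to 0.217% in untreated mice.

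Adipocyte genes were lower for 15 of 19 with a median of -0.96, and as for muscle this was -0.20 without untreated mice 2 and 4. Adipoq, the adipokine adiponectin, was at 33.0 and 25.0 CPM against 27.2, 93.6, 50.2, 122 and 47.7 CPM (log2 fold change -1.23 ± 0.54), and Pnpla2, the lipase that opens fat stores, at 129.7 and 146 CPM against 152, 379, 178, 400.2 and 321 CPM (log2 fold change -1.05 ± 0.42). Scd1, a desaturase of fat synthesis, was higher, at 241 and 181 CPM against 187, 125, 133, 137 and 101 CPM (log2 fold change 0.63 ± 0.26), and uncured mouse 5 lay just below untreated mouse 1. There were 2 genes lower at an unadjusted p under 0.05, or 11 without untreated mouse 1 and 0 without uncured mouse 1, uncured mouse 5 or untreated mouse 4. Over all genes, 345 of 16156 were lower at that threshold, and 713 of 16055 without untreated mouse 1. Fibroblast and matrix genes were higher for 24 of 28 with a median of 0.22, which was 0.01 without uncured mouse 5 and 0.39 without uncured mouse 1. Tnc, a matrix protein of injured tissue, was at 251 and 662 CPM against 389, 162, 248, 167 and 176 CPM, and its log2 fold change of 1.00 ± 0.44 was 0.13 without uncured mouse 5. Dcn (decorin) was lower in both uncured mice than in all untreated mice, at 933 and 724 CPM against 1011, 1176, 1263, 1411 and 935 CPM (log2 fold change -0.48 ± 0.30). Uncured mouse 1 and untreated mouse 5 were nearly equal for Dcn. Endothelial genes had a median of -0.21, or -0.03 without untreated mice 2 and 4, and Cldn5, a tight junction gene of vessels, was at 17.2 and 13.7 CPM against 18.5, 28.2, 22.8, 46.9 and 22.7 CPM (log2 fold change -0.85 ± 0.36). In glycolysis and hypoxia, Slc2a1 (GLUT1) was at 46.6 and 67.5 CPM against 45.7, 38.7, 41.6, 42.5 and 37.2 CPM and Bnip3 at 64.3 and 66.1 CPM against 87.1, 319, 102, 206 and 219 CPM. The list's median was -0.25, or 0.12 without untreated mice 2 and 4. Liver and exocrine pancreas genes (5 tested of 16) and erythroid genes (2 tested of 8) had no member at an unadjusted p under 0.05.

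A further 4 genes were named by their p and lack of overlap, among them C130026I21Rik, which the study also names. Abcb1b, an efflux transporter of the multidrug resistance family, was at 22.2 and 17.8 CPM in uncured mice 1 and 5 and at 32.3, 41.2, 40.1, 34.2 and 38.6 CPM in untreated mice 1 to 5, with a log2 fold change of -0.90 ± 0.19 (adjusted p 0.0369 by DESeq2). Cyp26b1, which degrades retinoic acid, was at 5.85 and 4.34 CPM against 10.6, 15.2, 9.47, 10.7 and 10.6 CPM (log2 fold change -1.15 ± 0.27). Rgcc, a regulator of the cell cycle that responds to complement, was at 11.5 and 10.9 CPM against 21.7, 37.9, 17.4, 37.7 and 37.5 CPM (log2 fold change -1.44 ± 0.36). C130026I21Rik, on chromosome 1 in a cluster of related genes that overlap it, was at 16.7 and 11.0 CPM against 3.31, 2.01, 4.94, 5.52 and 5.38 CPM, with a log2 fold change of 1.71 ± 0.37 (adjusted p 0.0376 by DESeq2). The overlap with other gene models makes the level of C130026I21Rik uncertain.

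The other day-35 groups place these levels. The CD8 and cytotoxic list took 0.00976% and 0.0103% of counts in the uncured mice, 0.00276% to 0.00647% in 5 anti-PD1 mice, 0.00409% to 0.00518% in 4 anti-CTLA4 mice and 0.00175% to 0.00220% in 3 cured mice. The MHC class II list took 0.501% and 0.588% in the uncured mice, 0.163% to 0.369% under anti-PD1, 0.226% to 0.342% under anti-CTLA4 and 0.111% to 0.120% in cured mice. For both lists the uncured mice had the highest shares of the 19 libraries, which was not tested. The B cell and plasma cell list took 0.0243% and 0.0279%, and here 1 anti-CTLA4 mouse reached 0.0259%, within the range of the uncured mice. The highest anti-CTLA4 share was 0.656% for gastric epithelium (uncured 0.597% and 0.694%) and 0.0341% for neutrophil genes (uncured 0.0208% and 0.0267%). For checkpoint genes it was 0.0360% (uncured 0.0355% and 0.0426%). Macrophage genes reached 0.310% under anti-PD1 (uncured 0.270% and 0.328%). The T cell list did separate, at 0.0270% and 0.0273% against at most 0.0215% elsewhere.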

How the data were processed

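Peritoneal tissue of 2 uncured dual ICI mice and 5 untreated mice of day 35 was compared by bulk RNA-seq with paired-end reads of 150 bp. The authors deposited unnormalized read counts made from aligned reads, in a table of 24421 gene symbols. Per the labels' processing notes, STAR 2.7.0f and featureCounts 1.6.4 with the mm10 genome were used, whereas the study's methods name another counting tool and another RNA kit, so the counting step is uncertain. The strand setting and the gene annotation are not given in the sources used here. Reads of near-identical or overlapping genes can therefore be split or shared between them. All columns of the table were mapped to a sample.

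Counts were filtered with filterByExpr, scaled by TMM and tested with the quasi-likelihood F test of edgeR 4.0.16 (R 4.3.3), with Benjamini-Hochberg adjustment over 16156 genes and a threshold of 0.05. Errors of fold changes are standard errors derived from that test. DESeq2 1.42.0 was the main alternative, and its adjusted p is NA where it filtered a gene. The scripts were tested on simulated data. Totals were 25989217 to 31080946 counts, and p-values measure the spread between these mice only.

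The 31 gene lists, the genes named and the tests were chosen with earlier results of these data known. Genes were named by rule: the 15 per direction with the smallest p among those without overlap between groups and with at least 1 CPM in the higher group, the genes called by DESeq2, up to 5 per direction from each list, and genes that the study names for these data. That gave 247 genes, of which 113 are described with values. One result is not reported here. Gene positions and overlaps came from GENCODE vM21, in which 23384 symbols matched (95.8%), and promoter sequences came from RefSeq on GRCm38.p6. Beside the main fit, 14 planned settings and 8 settings chosen after seeing the data were run, the latter leaving out untreated mice 2 and 4, adding the muscle share as a covariate, or repeating omissions in DESeq2.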

Additional observations from a re-analysis of the deposited data

Results flagged for a closer look

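Among the 5 untreated mice, the highest or lowest value stood apart from the rest by Dixon's test for 12 of the 113 genes and 31 list shares examined; chance alone flags about 1 in 20 groups. Untreated mouse 4 was high for Ctsw (4.79 CPM) and Jchain (156.9 CPM), and untreated mouse 1 for Ccr2 (74.8 CPM). Untreated mouse 2 was high for Stat5b (623 CPM), Il12a (6.80 CPM) and Cyp26b1 (15.2 CPM). The same mouse was low in the share of counts of CD8 and cytotoxic genes (0.00278%), mast cell and eosinophil genes (0.00656%), MHC class I genes (0.146%), gastric epithelium (0.130%), mesothelium (0.0559%) and liver and exocrine pancreas genes (0.00251%). It also held the largest share of muscle genes, 23.8% of its counts. What sets this library apart was not tested.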

How the results depend on the processing

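The number of genes with an adjusted p under 0.05 was 0 in edgeR with all mice and with any one mouse left out, 3 without untreated mice 2 and 4, and 17 in DESeq2. In DESeq2 it was 62, 50, 21, 29 and 0 with untreated mouse 1, 2, 3, 4 or 5 left out and 193 without untreated mice 2 and 4. At an unadjusted p under 0.05 there were 787 genes in edgeR, 1202 in DESeq2, 1243 in a fit of all 19 libraries of day 35, and 512 with the muscle share as a covariate. Leaving out single mice gave 132 to 1310 genes in edgeR and, for untreated mice 1 to 5, 1799, 1219, 1443, 1010 and 1069 in DESeq2, and leaving out untreated mice 2 and 4 gave 1482 in edgeR and 1554 in DESeq2. With a 2-fold threshold added there were 391 in edgeR and 644 in DESeq2, 113 to 705 in edgeR with single mice left out, and 979, 401, 844, 516 and 719 in DESeq2 without untreated mice 1 to 5. Genes with no overlap numbered 2817 with all mice, 3202 to 6319 with single mice left out and 4606 without untreated mice 2 and 4, since fewer mice overlap less often. The log2 fold change of Ms4a1, -0.03 with all mice, ranged from -0.26 to 0.10 with single mice left out and was above 0 without untreated mouse 1 (0.062 in DESeq2), 4 (0.10) or 5 (0.010 in DESeq2), and that of Il12a was 0.082 with the muscle covariate. Deviations of same-numbered mice from their group means correlated at -0.19 (mouse 1) and -0.07 (mouse 5). With 2 uncured mice these deviations mirror each other, so the values cannot decide whether mouse numbers pair the groups. With the replicate block, 0 genes had an adjusted p under 0.05 and 888 an unadjusted one, and the muscle contractile median was -0.05. In that fit, numbers 2, 3 and 4 were held by untreated mice only. Its group difference therefore rested on uncured mice 1 and 5 against untreated mice 1 and 5. With the muscle share as a covariate, the medians of 6 of the 31 gene lists moved by the criterion applied to every setting. That number was 5 with the replicate block and at most 3 in any other setting. The causes of these changes were not tested. With 2 uncured mice, the precision of each value is limited by their number.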
